A study of Mus musculus with 6 samples.

Results

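The long noncoding RNA (lncRNA) genes Malat1, Neat1, Tug1, Miat, Dancr, Pvt1 and Firre, 7 in all, were followed in newly made RNA of mouse embryonic stem cells after the zinc finger protein ZFP207 was targeted for degradation. They were taken by symbol from the 55401 gene rows of the count table, as transcripts named for being abundant or held in the nucleus, and each symbol had 1 row. Each of the 7 genes passed the filter on low counts, with 17573 genes in all. The members were chosen by name, with earlier results of these data known, and their abundance is the measured value that this choice mentions, so their levels are given as a description and without a test. No library of a cell fraction was analysed here, so the nuclear location of these RNAs was not checked, and Dancr in particular is known for roles in the cytoplasm as well.

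The cells were of the 129/Ola line, cultured with leukemia inhibitory factor, and the titles name a ZFP207 auxin-inducible degron (AID). The depleted group is 3 libraries from cells with IAA, the auxin that sends the tagged protein to the proteasome, for 5 h, with the genotype label ZFP207 degration. The control group is 3 libraries at 0 h of IAA. Its genotype label reads WT while its titles name the degron line, so whether the controls carry the tag is not settled by the labels, and neither is whether the line is 1 clone. Both groups were labelled with 4-thiouridine (4sU), a uridine analogue built into RNA while it is present, and the labelled RNA was captured through biotin. No cells without the degron were given IAA in the libraries analysed here, so the effects of IAA and of ZFP207 loss cannot be told apart. The series asks how ZFP207 bears on U1 snRNP, which marks 5' splice sites for the spliceosome.

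Long noncoding RNAs are transcripts that do not encode proteins, and several act in the nucleus as scaffolds. Malat1 collects in nuclear speckles, bodies rich in splicing factors, and Neat1 is the RNA on which paraspeckles are built. Malat1 and the long form of Neat1 do not end in a poly(A) tail: RNase P cuts their 3' end beside a tRNA-like structure, and a triple helix protects it. In 4sU-captured RNA, recent synthesis and precursors weigh more than in the whole RNA pool. This holds for a stable transcript such as Malat1 and for a short-lived one such as Neat1. The pulse length is not given and no unlabelled RNA was analysed here, so the part of older RNA in these counts is not known.

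The libraries held 14336811 to 23385133 counts in the depleted group and 17613103 to 25916628 in the control group. All 10 pluripotency markers exceeded 10 CPM (counts relative to the library's total, here with edgeR's TMM factors) in every library. Of 10 fibroblast markers, 7 stayed under 1 CPM in every library, and Postn, Col3a1, Lum and Dcn had no count. The summed fibroblast markers ran from 2.99 to 5.96 CPM in depleted and from 6.34 to 10.9 CPM in control libraries. The 7 primitive endoderm markers summed to 9.13 to 10.7 CPM in depleted and 4.61 to 9.37 CPM in control libraries. Only Sox17 among them stayed under 1 CPM in every library (at or under 0.433 CPM), and Sox7 reached 4.61 CPM. The 6 early neural markers summed to 87.2 to 150 CPM in depleted and 91.2 to 111 CPM in control libraries. Of these, Tubb3 had 64.6 to 113 CPM over all libraries. Replicate numbers are shared by the groups and were found to pair the libraries, so a fit with the number as a block is given beside the fit without it.

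The promoters of 5 of the 7 genes are held in the RefSeq table (GRCm38.p6), each from 250 bases before to 50 bases after the transcript start. They are shown for Malat1, by far the most abundant of the genes, for Firre, which lay below its control in all 3 replicate pairs, and for Tug1 and Dancr, which lay above theirs in all 3. Capitals mark matches on either strand to CCAAT (the letters that NF-Y binds), TATAAA (the TATA box), GGGCGG (the GC box of Sp1 factors), CACGTG (the E-box), TGACGTCA (the cAMP response element), AAGATGG (as bound by YY1) or CCGGAA (as bound by ETS factors), which were picked with the sequences in view. Malat1 is chr19:5802623-5802922, Firre is chrX:50635272-50635571 and Tug1 is chr11:3648765-3649064, all on the minus strand, and Dancr is chr5:74092810-74093109 on the plus strand.
Malat1: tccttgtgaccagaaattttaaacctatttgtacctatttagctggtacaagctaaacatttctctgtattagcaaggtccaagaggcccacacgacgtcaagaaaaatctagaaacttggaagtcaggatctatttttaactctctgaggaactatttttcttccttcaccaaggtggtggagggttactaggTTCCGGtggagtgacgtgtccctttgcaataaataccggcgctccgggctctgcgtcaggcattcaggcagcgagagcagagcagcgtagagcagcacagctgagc
Firre: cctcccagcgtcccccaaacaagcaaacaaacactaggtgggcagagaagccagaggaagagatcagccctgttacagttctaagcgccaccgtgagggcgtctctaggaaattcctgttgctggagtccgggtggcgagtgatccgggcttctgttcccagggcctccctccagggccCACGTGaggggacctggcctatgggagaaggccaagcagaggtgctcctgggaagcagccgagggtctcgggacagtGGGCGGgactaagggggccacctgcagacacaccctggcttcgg
Tug1: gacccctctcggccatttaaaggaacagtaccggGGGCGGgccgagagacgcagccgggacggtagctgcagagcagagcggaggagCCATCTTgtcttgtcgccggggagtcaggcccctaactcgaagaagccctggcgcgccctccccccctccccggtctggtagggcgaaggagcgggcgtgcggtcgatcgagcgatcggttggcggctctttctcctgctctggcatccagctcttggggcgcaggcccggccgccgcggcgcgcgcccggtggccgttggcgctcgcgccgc
Dancr: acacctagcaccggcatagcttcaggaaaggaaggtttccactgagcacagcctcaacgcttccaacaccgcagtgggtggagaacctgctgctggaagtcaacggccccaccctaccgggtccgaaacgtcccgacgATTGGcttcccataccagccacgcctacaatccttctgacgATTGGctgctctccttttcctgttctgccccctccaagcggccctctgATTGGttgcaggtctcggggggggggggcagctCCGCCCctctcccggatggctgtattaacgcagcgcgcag

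The 4 windows have little in common. In Malat1 the only match was to CCGGAA, whose letters occur in 15.2% of 27025 promoters, and 47.0% of its bases were G or C, against a median of 52.7% over all promoters. The Tug1 window was the richest in G and C (71.3%), with 37 CpG dinucleotides against a median of 7, and held GGGCGG and AAGATGG, found in 35.9% and 6.48% of promoters. Dancr had 3 matches to CCAAT, all in the reverse orientation, beginning at positions -112, -71 and -23 from the start. A promoter with at least 3 such matches is 1 of 962 (3.56%). Firre held CACGTG (7.24% of promoters) at -71 and GGGCGG at 7. No match was found to TATAAA or TGACGTCA in any of the 5 members' windows, and a match is a run of letters and not a measured binding site. The GC box was in each of the 4 except Malat1.

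**Figure D1:**
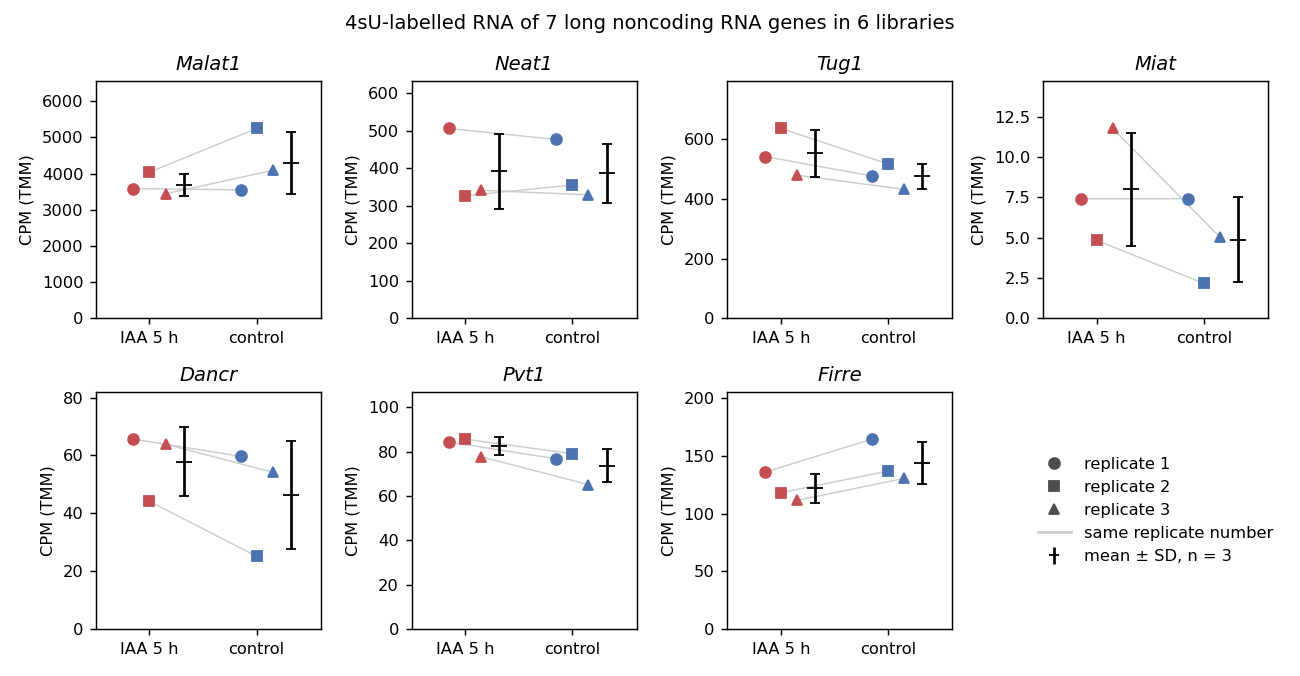
Levels in CPM (vertical axis, linear from 0) of the 7 genes in each library, with IAA 5 h left and control right, symbols for replicates 1 to 3, grey lines joining equal replicate numbers and bars for mean ± SD (n = 3). The groups overlap for all 7 genes.

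After 5 h of IAA, none of the 7 genes was called by edgeR's quasi-likelihood test at an adjusted p under 0.05, where 139 of 17573 genes (0.791%) were, 0.78% lower and 0.0114% higher. No member had an unadjusted p under 0.05 in that fit, against 10.9% of all genes, and DESeq2 called 0 of the 7, against 3.65% of all genes (3.29% lower and 0.353% higher). In the edgeR fit with the replicate block, which called 2259 genes (12.9%), 0 members were called. That fit called 19.3% of genes with a mean of at least 10 CPM, a level that every member except Miat reached. In it 5 members had an unadjusted p under 0.05 (27.9% of all genes), and the members' adjusted p ran from 0.0608 to 0.968. The CPM ranges of the groups overlapped for 7 of 7 members, while 18.8% of all genes had ranges that did not overlap. The median log2 fold change of the members was 0.16, beside 0.02 for all tested genes. A count of 0 in 7 is near the share of all genes in the fit without the block. In bulk libraries, fewer cells making an RNA and less of it per cell cannot be told apart. The 95% intervals below give the changes that each gene's data still allow.

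Malat1 (ENSMUSG00000092341.3, chromosome 19, 5795690 to 5802672) was the fourth most abundant of all tested genes by mean CPM, and took 72.8 to 82.5% of the counts of the 7 genes and 0.348 to 0.523% of a whole library. Its level was 3586, 4040 and 3439 CPM in depleted replicates 1 to 3, against 3550, 5248 and 4089 CPM in control replicates 1 to 3, from 50797 to 93277 counts. The control of replicate 2 was the highest of the 6 libraries, and the depleted library was lower in 2 of 3 pairs. The mean was 3688 ± 313 CPM in depleted and 4295 ± 867 CPM in control libraries (SD, n = 3). Depleted over control, this gave a log2 fold change of -0.22 (SE 0.17, 95% interval -0.61 to 0.17, edgeR adjusted p = 0.718), and -0.20 with the block (interval -0.37 to -0.04, edgeR adjusted p = 0.0944). The interval without the block spans 0.655 to 1.13 times the control level.

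Control replicate 2 set much of the size of the Malat1 difference. Without that library the log2 fold change was -0.05 (edgeR adjusted p = 0.962). With the block and without pair 1, where the libraries were level, Malat1 was called lower (log2 fold change -0.31, edgeR adjusted p = 0.0216). The share of all genes called in that fit is not given here. The block with all pairs called 12.9% of all genes and 19.3% of those of at least 10 CPM. With the block and without pair 2 the log2 fold change of Malat1 was -0.12 (edgeR adjusted p = 0.457). The pair ratios on the log2 scale were 0.01, -0.38 and -0.25. As plain shares of the library total, without TMM scaling, they were -0.05, -0.47 and -0.27, so the sign of pair 1 hangs on the scaling. The small RNA mascRNA is cut from the 3' end of Malat1 (Mascrna, 5795924 to 5795981) and was not analysed here as a row of its own, so its reads cannot be told from those of Malat1 here.

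Neat1 (ENSMUSG00000092274.3, chromosome 19, 5824708 to 5845480), whose interval lies 22.04 kb from that of Malat1, showed the smallest difference. It had 507, 327 and 341 CPM in depleted replicates 1 to 3, against 477, 355 and 329 CPM in control replicates 1 to 3. Replicate 1 was the highest in both groups, so the libraries parted by replicate number more than by IAA. The mean was 392 ± 99.7 CPM in depleted and 387 ± 78.9 CPM in control libraries. Its log2 fold change was 0.02 (interval -0.46 to 0.50, edgeR adjusted p = 0.986), and with the block it was 0.01 (interval -0.15 to 0.16, edgeR adjusted p = 0.968). Its sign turned with the scaling, to -0.042 on total counts, and with single libraries, to -0.21 without depleted replicate 1. With the block, the interval ran from 0.902 to 1.12 times the control level. RefSeq lists a short and a long transcript, of which the long one builds paraspeckles, and the table gives their sum.

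Tug1 (ENSMUSG00000056579.18, chromosome 11, 3639785 to 3648814), a conserved lncRNA studied for its links to Polycomb silencing, had 542, 636 and 479 CPM in depleted replicates 1 to 3, against 477, 517 and 432 CPM in control replicates 1 to 3. The depleted library was higher in each pair, while the lowest depleted library lay between the controls. Of all genes, 24.2% were higher in all 3 pairs, as were 3 of the 7 members (Tug1, Dancr and Pvt1), and 4 of the 7 kept one direction in all 3 pairs, as did 48.3% of all genes. The means were 553 ± 78.9 CPM in depleted and 475 ± 42.6 CPM in control libraries. This is a log2 fold change of 0.22 (SE 0.15, interval -0.13 to 0.56, edgeR adjusted p = 0.673), and 0.21 with the block (SE 0.07, interval 0.06 to 0.36, edgeR adjusted p = 0.0608), which is the lowest adjusted p among the 7 genes in that fit.

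Pvt1 (ENSMUSG00000097039.8, chromosome 15, 62037986 to 62260215), a lncRNA gene next to the growth regulator gene Myc, had the steadiest level of the 7 genes in depleted libraries. It had 84.3, 85.6 and 77.6 CPM in depleted replicates 1 to 3, against 76.7, 79.1 and 65.1 CPM in control replicates 1 to 3. The ranges overlapped only because depleted replicate 3 lay below control replicate 2. The coefficient of variation was 5.17% in depleted and 10.1% in control libraries. Between the groups the log2 fold change was 0.16 (interval -0.17 to 0.50, edgeR adjusted p = 0.759), and 0.17 with the block (interval -0.03 to 0.37, edgeR adjusted p = 0.260). The pseudogene Macroh2a3 lies within Pvt1 and had no counts in any library.

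Firre (ENSMUSG00000085396.7, chromosome X, 50563120 to 50635321), an X-linked lncRNA that binds the nuclear matrix protein HNRNPU, was the only member that was lower in all 3 pairs, as were 24.1% of all genes. It had 136, 118 and 112 CPM in depleted replicates 1 to 3, against 165, 137 and 131 CPM in control replicates 1 to 3. Replicate 1 was the highest library of each group, and its depleted library lay among the controls. The pair ratios were close, at -0.28, -0.21 and -0.23 on the log2 scale. Over the groups the log2 fold change was -0.24 (SE 0.15, interval -0.59 to 0.11, edgeR adjusted p = 0.634), and -0.24 with the block (SE 0.08, interval -0.41 to -0.07, edgeR adjusted p = 0.0647).

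Dancr (ENSMUSG00000106943.2, chromosome 5, 74093060 to 74094337), a lncRNA known for holding back differentiation of progenitor cells and the host of the snoRNA gene Snora26, had 65.6, 44.1 and 63.9 CPM in depleted replicates 1 to 3, against 59.7, 25.1 and 54.2 CPM in control replicates 1 to 3. Both libraries of replicate 2 were low, the control most of all. The means were 57.9 ± 11.9 CPM in depleted and 46.3 ± 18.6 CPM in control libraries, which gave a log2 fold change of 0.32 (SE 0.31, interval -0.38 to 1.02, edgeR adjusted p = 0.778), and 0.39 with the block (interval 0.09 to 0.68, edgeR adjusted p = 0.0795). Without control replicate 2 it was 0.02 (edgeR adjusted p = 0.989). The row of Snora26 had 1 count in each library.

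Miat (ENSMUSG00000097767.8, chromosome 5, 112213228 to 112228948), also called Gomafu, a nuclear lncRNA whose repeats bind the splicing factor SF1, was the least abundant by CPM and the least certain. It had 7.41, 4.84 and 11.8 CPM in depleted replicates 1 to 3, against 7.42, 2.16 and 5.04 CPM in control replicates 1 to 3. Replicate 1 was level, and the depleted library was higher in the other 2 pairs. The lowest library held 38 counts and the highest 195, and counting error alone gives a coefficient of variation of 16.2% at 38 counts, against 43.8% seen in depleted and 54.0% in control libraries. Its log2 fold change was 0.70 (SE 0.49, interval -0.41 to 1.82, edgeR adjusted p = 0.673), and 0.77 with the block (SE 0.31, interval 0.09 to 1.45, edgeR adjusted p = 0.128). Leaving out control replicate 2 gave 0.35, leaving out depleted replicate 3 gave 0.33 and leaving out control replicate 1 gave 1.16.

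**Figure D2:**
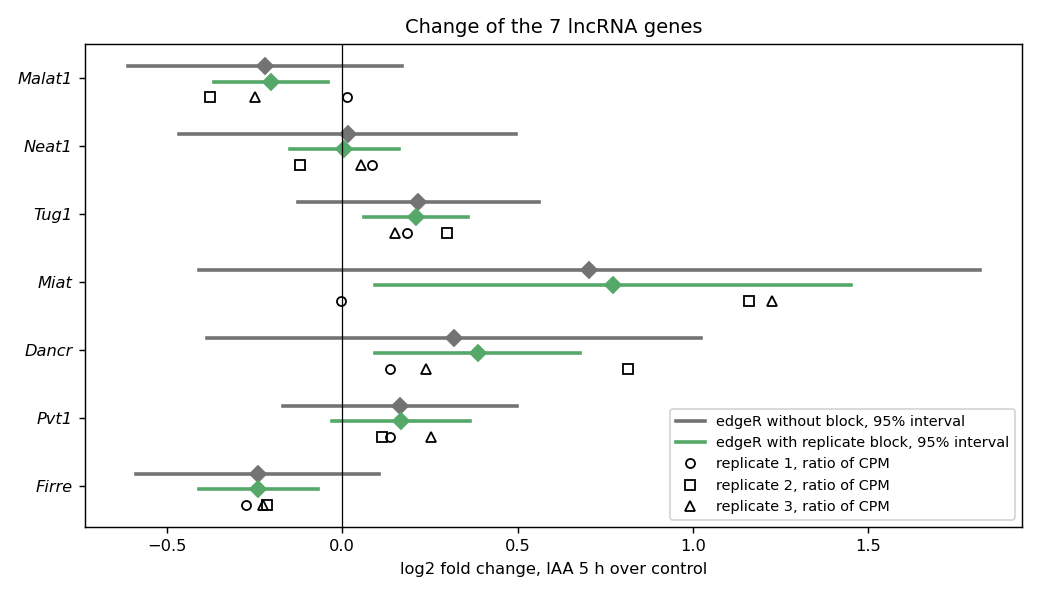
Log2 fold changes of IAA 5 h over control (horizontal axis) for each gene, with 95% intervals from edgeR without the block (grey) and with it (green) and the ratio of CPM in each replicate pair (open symbols). Every grey interval crosses 0; the green ones of Neat1 and Pvt1 also do, and no gene passed the adjusted threshold in either fit.

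Set against each library's own place among the 6, some genes shared a pattern. Dancr and Miat were both low in control replicate 2, at -0.96 and -1.11 from their mean over the libraries on the scale of log2(CPM + 1), where Malat1 was at 0.41. Tug1 and Pvt1 had the most similar profiles of any pair of members, with a root mean square difference of 0.09 over the 6 libraries. Miat and Malat1 were the least alike (0.82). Neat1 and Firre, both highest in replicate 1 of each group, differed by 0.19, and Malat1 and Neat1, neighbours on the chromosome, by 0.39.

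The libraries of replicate 2 also differed from the others in their make-up. Ribosomal protein genes took 1.15% of the counts in depleted and 1.03% in control replicate 2, and 1.54 to 1.75% in the other 4 libraries. The median of genes of at least 100 kb lay 0.19 (depleted) and 0.34 (control) above that of genes under 10 kb in replicate 2, on the log2 scale relative to the mean of the 6 libraries. In replicates 1 and 3 this difference was -0.25 and -0.26 in depleted and -0.06 and 0.06 in control libraries. The part of this make-up in the values of Dancr, Miat and Malat1 was not tested.

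**Figure D3:**
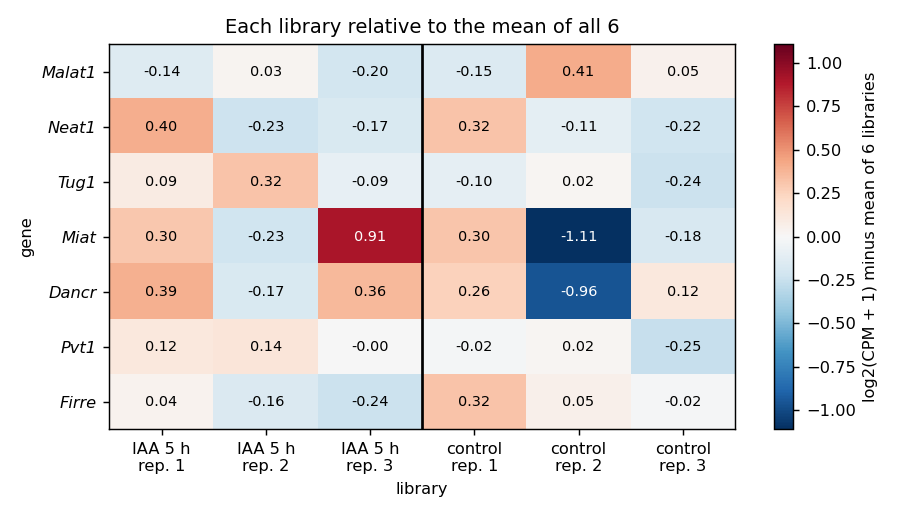
Log2(CPM + 1) of each gene (rows) in each library (columns, IAA 5 h left of the line) minus the gene's mean over the 6 libraries, in colour and in print. Control replicate 2 holds the lowest values of Miat (-1.11) and Dancr (-0.96) and the highest of Malat1 (0.41).

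**Figure D4:**
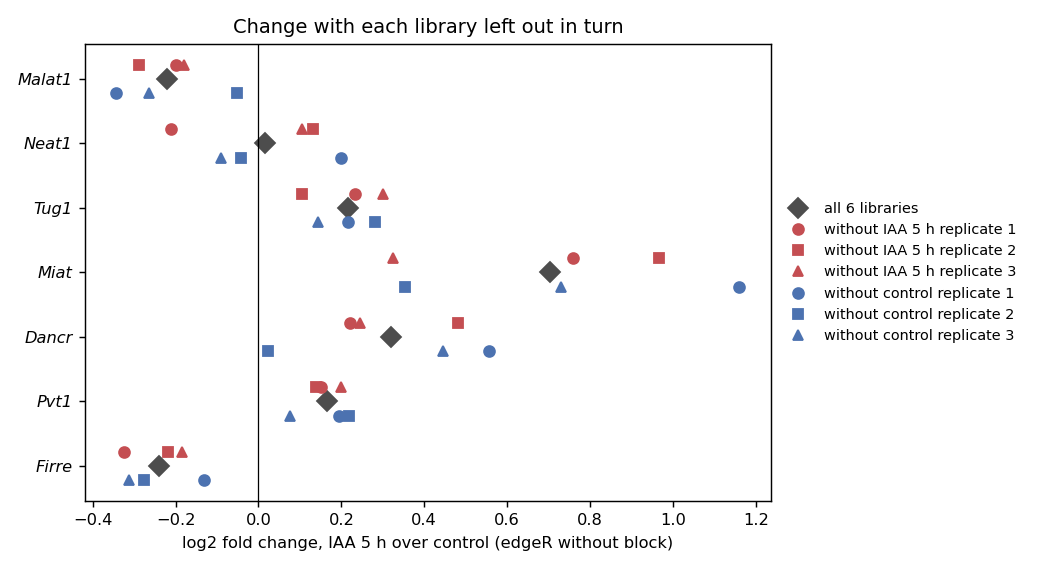
Log2 fold change of each gene from edgeR without the block with all 6 libraries (diamond) and with 1 library left out (red for IAA 5 h, blue for control, symbols for replicate numbers). Leaving out control replicate 2 brings Dancr to 0.02 and Malat1 to -0.05, and Neat1 lies on both sides of 0.

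Per kilobase of genomic span, introns included, Malat1 stood far above the others. It had 528 ± 44.9 CPM per kb in depleted and 615 ± 124 in control libraries. Tug1 followed at 61.2 ± 8.73 in depleted and 52.6 ± 4.72 in control libraries, then Dancr at 45.3 ± 9.35 in depleted and 36.2 ± 14.5 in control libraries. Neat1 had 18.9 ± 4.80 in depleted and 18.6 ± 3.80 in control libraries. Firre stood at 1.69 ± 0.175 in depleted and 1.995 ± 0.251 in control libraries. Miat and Pvt1 were last, at 0.509 ± 0.223 and 0.371 ± 0.0192 CPM per kb in depleted and 0.310 ± 0.167 and 0.331 ± 0.0336 in control libraries, and their order turned between the groups. Neighbours in this order whose means lay closer than the sum of their SDs were Tug1 with Dancr and Miat with Pvt1 in both groups, and Dancr with Neat1 in controls. Genomic span understates a gene with long introns, such as Pvt1 at 222 kb, where introns are removed and degraded.

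Gene length set the members in different company. Genes under 10 kb had a median log2 fold change of 0.14 with quartiles from -0.18 to 0.34, between which Tug1 and Dancr lay and below which Malat1 lay. Genes of 100 kb or more had a median of -0.12 and quartiles from -0.48 to 0.09, and Pvt1, at 0.16, lay above them. Firre lay between the quartiles of genes of 30 to 100 kb, which ran from -0.39 to 0.14. Among genes of 10 to 30 kb, with quartiles from -0.29 to 0.23, Neat1 lay between them and Miat above.

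Members and their class were not alike in level, and the class median was higher among its more abundant genes. Level was not separated from gene length here. The 758 other tested genes that RefSeq names lncRNA had a median log2 fold change of -0.28, beside 0.16 for the 7 members and 0.02 for protein-coding genes. Those with a mean of at least 10 CPM (127 genes) had a median of 0.11, beside 0.07 for all 9546 genes at that level. The fit without the block called 9 of the 758 lower (1.19%) and 0 higher, against 0.78% and 0.0114% of all genes. With the block 64 were lower and 24 higher, 11.6% in all, against 12.9% of all genes. Of the 127, the block called 29.9% and DESeq2 12.6%, against 19.3% and 4.36% of all genes of at least 10 CPM. Malat1 and Firre lay near the lower quartile (-0.24) of the 127, and Neat1, Tug1, Dancr and Pvt1 between the quartiles, the upper one being 0.36.

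Genes next to the members showed 1 contrast. One neighbour of Tug1 is Morc2a, an ATPase gene of the MORC family that works with the HUSH silencing complex. By the RefSeq promoter positions and strands, Tug1 and Morc2a start 623 bases apart and run in opposite directions. Their gene intervals lie 0.375 kb apart, so part of these bases lies within the Morc2a interval. Morc2a (3649189 to 3690477) had 164, 168 and 148 CPM in depleted replicates 1 to 3, against 211, 196 and 186 CPM in control replicates 1 to 3. All 3 depleted libraries lay below all 3 controls, and 18.8% of all genes had ranges that did not overlap. Morc2a had a log2 fold change of -0.31 (SE 0.13, edgeR adjusted p = 0.443), and with the block it was called lower (-0.31, SE 0.08, edgeR adjusted p = 0.0196), where 7.9% of all genes were lower. Tug1 lay higher in the same pairs.

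The ratio of Tug1 to Morc2a was 3.31, 3.79 and 3.24 in depleted replicates 1 to 3, against 2.26, 2.64 and 2.32 in control replicates 1 to 3. Every depleted library was above every control. The ratio averaged 3.45 ± 0.297 in depleted and 2.40 ± 0.207 in control libraries, a log2 difference of 0.52. The ratio was picked after the values of both genes were seen, so it was given no test. For genes picked as differing in opposite directions, a separated ratio is nearly built in. The share among other pairs of neighbours is not given here. Without a statement of strand, the gene of origin of reads from the bases between the promoter starts cannot be told.

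**Figure D5:**
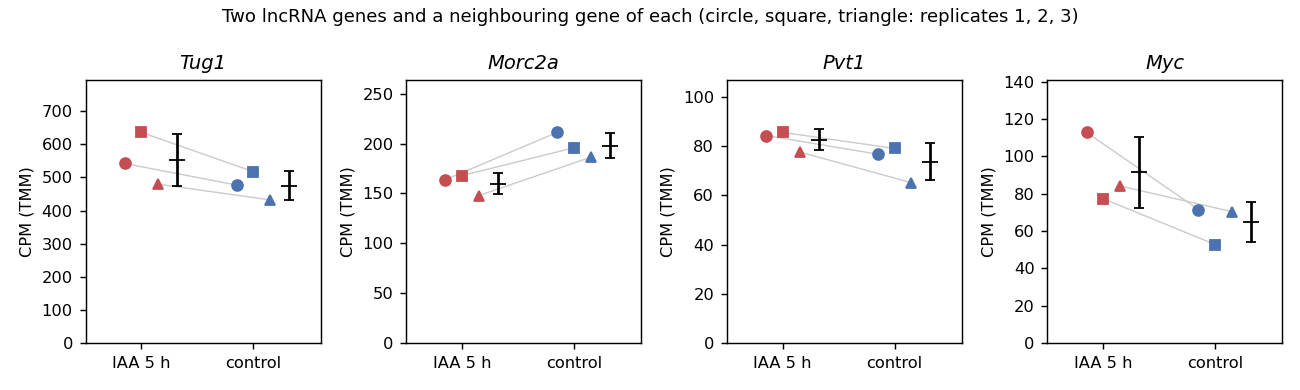
Levels in CPM (vertical axes from 0) of Tug1 with Morc2a, and of Pvt1 with Myc, in each library, IAA 5 h left of control, lines joining equal replicate numbers and bars for mean ± SD (n = 3). Morc2a is lower in all depleted libraries (148 to 168 CPM) than in controls (186 to 211 CPM) while Tug1 is higher in each pair.

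Pvt1 and Myc, which lies 47.6 kb away (61985341 to 61990361), both lay higher. Myc, a transcription factor of cell growth, had 113, 77.2 and 84.1 CPM in depleted replicates 1 to 3, against 71.4, 52.7 and 70.3 CPM in control replicates 1 to 3. Every depleted library exceeded every control, where 18.8% of all genes had ranges that did not overlap. Myc differed by a log2 fold change of 0.50 (edgeR adjusted p = 0.394), and with the block Myc was called higher (0.49, SE 0.10, edgeR adjusted p = 0.00782), where 4.96% of all genes were higher. Pvt1 differed by 0.16 in the first fit and 0.17 in the second and was called in neither. Among other nearest tested genes, Frmd8, Smtn, Mn1, Tpst2, Usp46, Rasl11b, Fam49b, Gm7803 and Stk26 were not called in any of the 3 fits.

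Calls among protein genes of the bodies that Neat1 and Malat1 form or enter came almost wholly from the fit with the block. In that fit 4.96% of all genes were higher, and 8.71% of the 9546 genes of at least 10 CPM. Of 22 tested paraspeckle protein genes, 6 rose and 0 fell in the edgeR fit with the block (27.3%). DESeq2 called 1 (4.55%, against 3.65% of all genes). The edgeR fit without the block called 0, with 2 at an unadjusted p under 0.05, against 0.791% and 10.9% of all genes. Rbm14, a coactivator needed for paraspeckles, averaged 492 ± 48.0 CPM in depleted and 306 ± 40.4 CPM in control libraries (log2 fold change with the block 0.69, SE 0.10, edgeR adjusted p = 5.97e-04). The RNA-binding protein genes Rbmx and Dazap1 rose by 0.51 and 0.50 on the same scale. The list's median was 0.17 without the block, while Neat1 itself was at 0.02.

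Of 22 tested nuclear speckle protein genes, 8 rose and 0 fell with the block (36.4%). In that fit 4.96% of all genes were higher, and 8.71% of those of at least 10 CPM. The edgeR fit without the block called 0, with 3 at an unadjusted p under 0.05 (10.9% of all genes), and DESeq2 called 0. Pnn, which encodes the speckle protein pinin, averaged 228 ± 35.3 CPM in depleted and 165 ± 9.09 CPM in control libraries (log2 fold change with the block 0.46, edgeR adjusted p = 0.00317). The SR splicing factor gene Srsf5 and the scaffold gene Srrm2 rose by 0.33 and 0.31. The median of this list was 0.21 without the block, while Malat1 was at -0.22.

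Of 13 genes for the 3' end of Malat1 and long Neat1 (RNase P proteins, the RNase Z gene Elac2 and Mettl16, whose protein binds the Malat1 triple helix), 3 fell and 1 rose with the block (30.8%, against 12.9% of all genes and 19.3% of those of at least 10 CPM), and 0 were called without it by edgeR or DESeq2, where edgeR had 4 at an unadjusted p under 0.05, as had 10.9% of all genes. Mettl16 averaged 151 ± 24.2 CPM in depleted and 210 ± 27.3 CPM in control libraries (log2 fold change with the block -0.48, SE 0.09, edgeR adjusted p = 0.00376). The RNase P protein genes Rpp38 (-0.75) and Rpp40 (-0.58) fell and Rpp25 (0.43) rose. Of 6 tested genes for proteins that the members bind, Hnrnpu, whose protein anchors Firre, rose with the block to 1336 ± 168 CPM in depleted libraries, against 1090 ± 96.5 CPM in controls (0.29, SE 0.06, edgeR adjusted p = 0.0113). With the block 1 of the 6 was called (16.7%, against 12.9% of all genes and 19.3% of those of at least 10 CPM). The fits without the block called none of the 6 and none had an unadjusted edgeR p under 0.05.

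Genes whose levels over the 6 libraries were most like each member's were sought among 9540 others of at least 10 CPM, by the root mean square difference of centred log2(CPM + 1). Plec was nearest to Pvt1 (0.01), 2610021A01Rik to Tug1 (0.03), Snx30 to Firre (0.04), Pikfyve to Malat1 (0.05) and Armh3 to Neat1 (0.05). Lypla2 was nearest to Dancr (0.08) and Nagpa to Miat (0.12). The next were Arf4, 2610507B11Rik, Blmh, Zfp987, Inava, Dus3l and H2aw in the same order. With 6 libraries and this many candidates a near match is a description only, and it is closer for genes that vary little.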

How the data were processed

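The deposited table holds estimated counts per gene as whole numbers, 1 column per library, each matched to a sample title by name. HISAT2 2.2.1, StringTie 2.2.1, DESeq2 1.42.0 and mm10 are named, with no role, in the submitters' processing notes. The sources used here do not give strand, 4sU pulse length or spike-ins, so levels are relative to the other genes of a library, and reads of overlapping or antisense genes cannot be told apart.

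The counts were fitted with edgeR 4.0.16 in R 4.3.3 (filterByExpr, TMM, robust quasi-likelihood test of depleted over control, Benjamini-Hochberg adjustment over 17573 genes, threshold 0.05), with DESeq2 1.42.0 as an alternative, and the edgeR code was tested on simulated data. Standard errors are those implied by the fold change and F statistic. Deviations from the group means correlated at 0.268, 0.387 and 0.321 between libraries of the same replicate number, so replicate numbers were treated as pairs. Between others the correlations were -0.265 to -0.025. Deviations within a group cancel by construction, so these negative values are not separate evidence of pairing. The labels do not say whether replicates were separate cultures, and p-values reflect only the spread of these 6 libraries, which may be technical.

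RefSeq GRCm38.p6 positions and biotypes were found for 15293 tested genes by symbol and 69 by synonym. Named genes are the members, the nearest tested gene on each side, the 2 nearest in profile, and, per list, the called genes or the 3 with the largest change in each direction. Not every gene that this choice gives is reported here. The members and lists were chosen with earlier results of these data known. Alternatives were other scaling, no filter, DESeq2, the replicate block and leaving out libraries.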

Additional observations from a re-analysis of the deposited data

How the results depend on the processing

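The members' directions held in all 13 alternatives for Malat1, Tug1, Miat, Dancr, Pvt1 and Firre. Neat1 turned to -0.042 on total counts, ran from -0.21 to 0.20 when 1 library was left out, and with the replicate block was -0.035 without pair 1, -0.031 without pair 3 and 0.07 without pair 2. The count of members called was 0 in every alternative except the block without pair 1, where it was 1 (Malat1). The share of all genes called without pair 1 is not given here. Over all genes, edgeR without the block called 139, DESeq2 641 and the replicate block 2259, and 0 to 1 when 1 library was left out. Under DESeq2 and the block the calls were 1 and 6 of 22 paraspeckle proteins, 4 and 8 of 32 other named lncRNAs and 45 and 88 of 765 RefSeq lncRNA genes. The last were 0 to 1 when 1 library was left out, and the block called 8 of 22 nuclear speckle protein genes. Of all genes, DESeq2 called 3.65% and the block 12.9%. The causes were not tested, and the fits that leave out a library also have fewer libraries. Counts down to 38 limit Miat most.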

Other observations

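Other named lncRNA genes were listed as known from stem cells or as widely studied. Of these, 7 of 32 tested were lower and 1 higher in the edgeR fit with the replicate block. That is 25%, against 12.9% of all genes. The edgeR fit without it called 0, with 9 at an unadjusted p under 0.05, against 0.791% and 10.9% of all genes. DESeq2 called 3 lower and 1 higher (12.5%, against 3.65% of all genes). The stem cell lncRNA genes Platr26 and Platr20 fell, with log2 fold changes of -1.89 and -1.29 with the block. Both were of low level. Platr26 averaged 0.782 ± 0.0861 CPM in depleted and 3.01 ± 1.01 CPM in control libraries. Platr20 averaged 2.27 ± 0.995 CPM in depleted and 5.33 ± 1.37 CPM in control libraries, and DESeq2 did not call it (DESeq2 adjusted p = 0.205). Trp53cor1 (lincRNA-p21), next to a p53 target gene, averaged 2.57 ± 0.608 CPM in depleted and 6.64 ± 0.368 CPM in control libraries. Tsix, the antisense partner of Xist, had 236, 149 and 187 CPM in depleted replicates 1 to 3, against 117, 96.5 and 117 CPM in control replicates 1 to 3 (log2 fold change with the block 0.78, SE 0.09, edgeR adjusted p = 2.06e-04). Xist had 5.45 to 21.4 CPM in depleted and 6.58 to 19.2 CPM in control libraries. Reads of the overlap of Tsix and Xist cannot be told apart without strand.

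Among called RefSeq lncRNA genes with a mean of at least 5 CPM, 1110002L01Rik (chromosome 12, 3403883 to 3426747) fell most without the block, to 14.3 ± 5.42 CPM in depleted libraries, against 64.0 ± 4.03 CPM in controls (log2 fold change -2.16, edgeR adjusted p = 0.0300). Gm4419 and 4930461G14Rik followed at -2.15 and -1.90. Among the same kind of genes, the largest rises with the block were those of 4933439C10Rik (1.00), Rab26os (0.94) and 1110038B12Rik (0.90), of which 1110038B12Rik averaged 270 ± 43.7 CPM in depleted and 150 ± 51.4 CPM in control libraries.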
